A study of Arabidopsis thaliana with 6 samples.

Results

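CYP51G2 (locus AT2G17330, probe set 264877_at) and AT1G43590 (probe set 262719_at) are 2 Arabidopsis genes whose signals were above the array median in every leaf sample of plants that express AmGSTF1 and below it in every leaf sample of wild-type plants. They are 2 of the 13286 genes, and their probe sets 2 of the 22746, that were considered on a gene expression array. Both were chosen by their array signals in this same comparison of the groups, so the difference is described here and carries no test. Tests were run on other genes, namely those on either side of each locus, other cytochrome P450 genes, the sterol pathway and other pseudogenes. These lists were themselves drawn up with earlier results of these data known. RefSeq's table of genes for assembly TAIR10.1 places CYP51G2 on chromosome 2, as a transcribed pseudogene, and AT1G43590 on chromosome 1, as a pseudogene.

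The AmGSTF1 group was 3 arrays of leaf RNA from plants of the ecotype Col0 with the transgene AmGSTF1, which encodes a grass-weed enzyme that joins glutathione to other compounds. The Col0 group was 3 arrays from plants of the same ecotype with no transgene. In both groups the seeds had been chilled for 72 hours at 4 °C, the plants grew at 20 °C with 16 hours of light, and for each replicate 10 leaves floated for 4 hours on 0.1% Tween 20 with 0.1% acetone. Plant age, the promoter of the transgene, its site of insertion and the number of independent lines are not given in the sources used here, and nor is the number of plants behind each replicate.

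All values are MAS5 signals, in which a probe set's matched and mismatched probes are merged into 1 linear intensity, on arrays scaled to a common trimmed mean. The median signal was 151 to 164 on the AmGSTF1 arrays and 146 to 150 on the Col0 arrays. Leaf genes were bright, with RCA, the activase of the carbon-fixing enzyme Rubisco, at 15400 to 21300 on AmGSTF1 arrays and 19000 to 22800 on Col0 arrays, and LHCB4.2, a light-harvesting antenna protein, at 8260 to 13200 on AmGSTF1 arrays and 7540 to 8570 on Col0 arrays. PYK10, a glucosidase of roots, had signals of 63.2 to 173 in AmGSTF1 and 38.5 to 85.9 in Col0 and was not called different (adjusted p = 0.350, limma). Of 10 leaf, 2 root, 3 flower and 3 seed markers, 2, 1, 0 and 0 had a named probe set, so the tissue was checked by these few genes.

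CYP51 enzymes are cytochrome P450s that remove a methyl group from the ring system of a sterol precursor, a step shared by plants, fungi and animals. In Arabidopsis the working enzyme of this step is CYP51G1, which the gene table also lists under an embryo-defective name. CYP51G2 is its close relative, and a pseudogene is a gene copy that has lost, or is thought to have lost, the ability to make a working protein, although some are still transcribed. CYP51G1 had no named probe set and was not analysed here. No probe or transcript sequence was used, so whether RNA of a related gene binds the CYP51G2 probes was not tested.

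The CYP51G2 signal was 331, 412 and 304 on the AmGSTF1 arrays and 4.10, 24.5 and 24.7 on the Col0 arrays, in the order of the replicate numbers. The groups lay far apart, and the lowest AmGSTF1 signal was 12.3 times the highest Col0 signal. Groups of 3 that do not overlap and are higher in AmGSTF1 made up 14.5% of the 13647 probe sets bright enough to be tested, and the choice of both genes used this contrast, so nothing is read from the lack of overlap. Mean signals were 349 ± 56.3 in AmGSTF1 and 17.8 ± 11.8 in Col0 (SD, n = 3 each). The spread was 16.1% of the mean in AmGSTF1 and 66.6% of the mean in Col0, where replicate 1 was the low array.

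AT1G43590 had signals of 436, 332 and 440 in AmGSTF1 and 46.6, 86.4 and 57.0 in Col0. Its groups also lay apart, with the lowest AmGSTF1 signal 3.84 times the highest Col0 signal. Mean signals were 403 ± 61.1 in AmGSTF1 and 63.3 ± 20.6 in Col0 (SD, n = 3 each). The spread was 15.2% of the mean in AmGSTF1 and 32.6% of the mean in Col0, where replicate 2 was the high array. Signals of different probe sets do not compare amounts of RNA, so the levels of the genes were not set against each other.

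**Figure D1:**
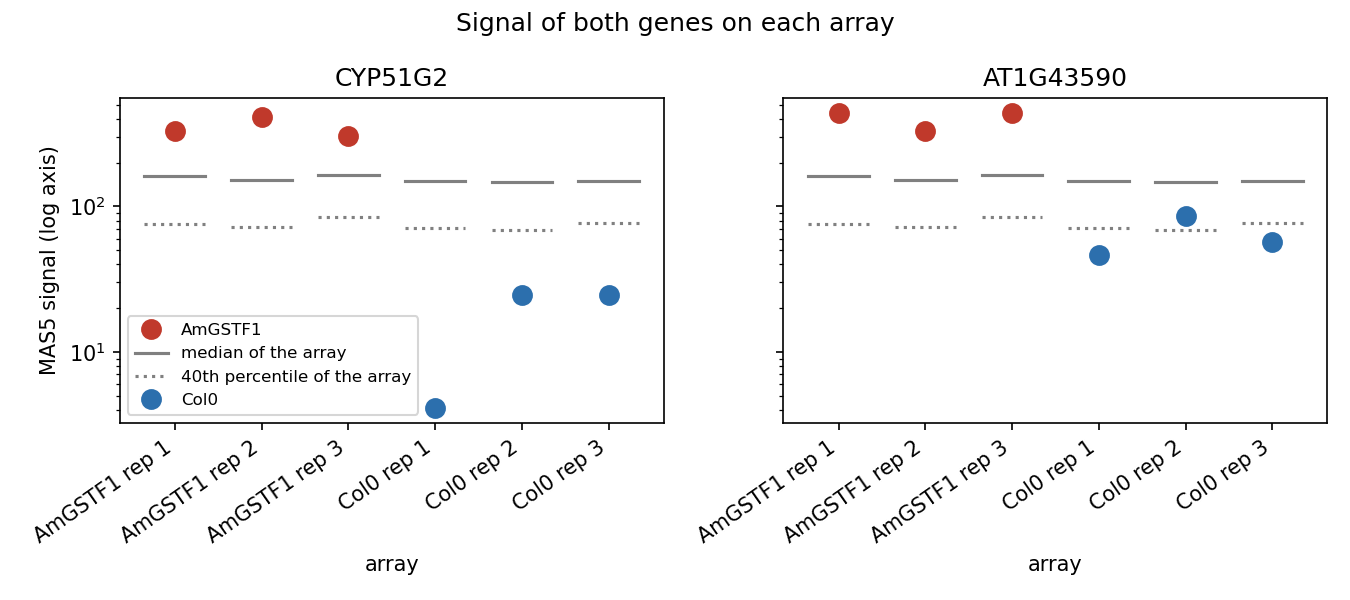
MAS5 signal (log axis) of CYP51G2 and AT1G43590 on each of the 3 AmGSTF1 arrays (red) and 3 Col0 arrays (blue), with the median of each array as a solid line and its 40th percentile as a dotted line. All 6 red points lie above the array median, all blue points lie below it, and AT1G43590 on Col0 replicate 2 is the single blue point above the dotted line.

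Ranks within each array show the same change without any scaling between arrays. CYP51G2 stood at percentiles 62.7, 68.6 and 61.5 of all probe sets on the AmGSTF1 arrays and at 11.1, 25.9 and 22.7 on the Col0 arrays. In AmGSTF1 leaves the gene was therefore brighter than most probe sets, while in Col0 leaves it was among the dim ones. AT1G43590 stood at percentiles 68.6, 64.1 and 69.3 in AmGSTF1 and at 34.4, 42.8 and 35.1 in Col0. As a description of signal only, the word near-silent fits the Col0 ranks of CYP51G2. AT1G43590 was dim in Col0 without being near the bottom, around the 40th percentile of its arrays. These ranks do not compare the amounts of RNA of both genes. No detection calls were used, so it was not established whether either gene is transcribed at all in Col0 leaves.

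On the log2(signal + 16) scale the difference, AmGSTF1 minus Col0, was 3.50 for CYP51G2 and 2.42 for AT1G43590. Replicate SDs on this scale were 0.22 in AmGSTF1 and 0.59 in Col0 for CYP51G2, and 0.22 in AmGSTF1 and 0.36 in Col0 for AT1G43590. The differences were the second and the eleventh from the top among all 22746 probe sets. Because the Col0 signals of CYP51G2 are of the order of the added constant, its size depends on that constant, at 4.54 with a constant of 1 and 2.34 with a constant of 64, against 2.68 and 1.88 for AT1G43590. Leaving out any 1 array gave 3.16 to 3.67 for CYP51G2 and 2.26 to 2.62 for AT1G43590. In bulk leaf RNA, more cells that express a gene and more RNA per cell cannot be told apart.

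The arrays on which the genes were highest were not the same. Among AmGSTF1 replicates CYP51G2 was highest on replicate 2, the array on which AT1G43590 was lowest. Among Col0 replicates both genes were lowest on replicate 1. Over the 6 arrays their log2 values correlated at Pearson r = 0.976, a figure set mostly by the gap between the groups.

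The combination of a low rank in every Col0 array and a high rank in every AmGSTF1 array was counted over all probe sets. The pattern was drawn up to describe both genes, which were chosen by such values, so the count carries no test of them. Probe sets under the 40th percentile on all 3 Col0 arrays and above the 50th on all 3 AmGSTF1 arrays numbered 3 of 22746 (0.0132%), and CYP51G2 was the only one with a gene name here. The mirror image, under the 40th percentile on all AmGSTF1 arrays and above the 50th on all Col0 arrays, was found in 2 probe sets (0.00879%). AT1G43590 missed the pattern through Col0 replicate 2, at percentile 42.8. With the lower limit at the 45th percentile, chosen after this was seen, 12 probe sets had the pattern, AT1G43590 among them, and 9 had its mirror image. With limits at the 30th and 60th percentiles CYP51G2 alone was left, and 0 had the mirror image. At the 20th and 50th percentiles 0 probe sets had either pattern, so CYP51G2 dropped out too. Leaving out an array can only keep or raise the count, since fewer arrays must meet the limits. Without Col0 replicate 2, 11 probe sets qualified, against 5 without AmGSTF1 replicate 2 and 5 without AmGSTF1 replicate 3. The mirror image was counted 4 times without either of these AmGSTF1 arrays.

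The other 4 probe sets have no gene name here and were singled out after their values were seen. Probe set 252367_at had signals of 170, 241 and 243 in AmGSTF1 and 27.3, 8.33 and 8.99 in Col0. Probe set 245668_at had signals of 347, 187 and 193 in AmGSTF1 and 2.19, 54.6 and 29.6 in Col0. Both reached percentiles just above the array median in AmGSTF1, 50.7 and 52.8 at the lowest, where the lowest for CYP51G2 was 61.5. In the other direction, 248676_at had signals of 43.0 to 63.5 in AmGSTF1 and 388 to 568 in Col0, and 252269_at had 5.79 to 33.9 in AmGSTF1 and 210 to 274 in Col0. Signal was thus lost in this way by 2 probe sets and gained by 3.

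Most dim genes stayed dim. Of the 8248 probe sets under the 40th percentile on all Col0 arrays, 7724 (93.6%) were also under it on all AmGSTF1 arrays. Their median log2 difference was 0.02, and 197 were higher in AmGSTF1 by more than 1, 4 by more than 2 and 1, CYP51G2, by more than 3. Of the 8255 probe sets under the 40th percentile on all AmGSTF1 arrays, 164 were higher in Col0 by more than 1, 2 by more than 2 and 1 by more than 3. Among the 11 probe sets with a difference of at least that of AT1G43590, 7 had all Col0 signals below the array median. CYP51G2 and AT1G43590 are among the 7. Of all 22746 probe sets, 9499 lay under the 45th percentile on all Col0 arrays, and the share under the median was not counted.

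**Figure D2:**
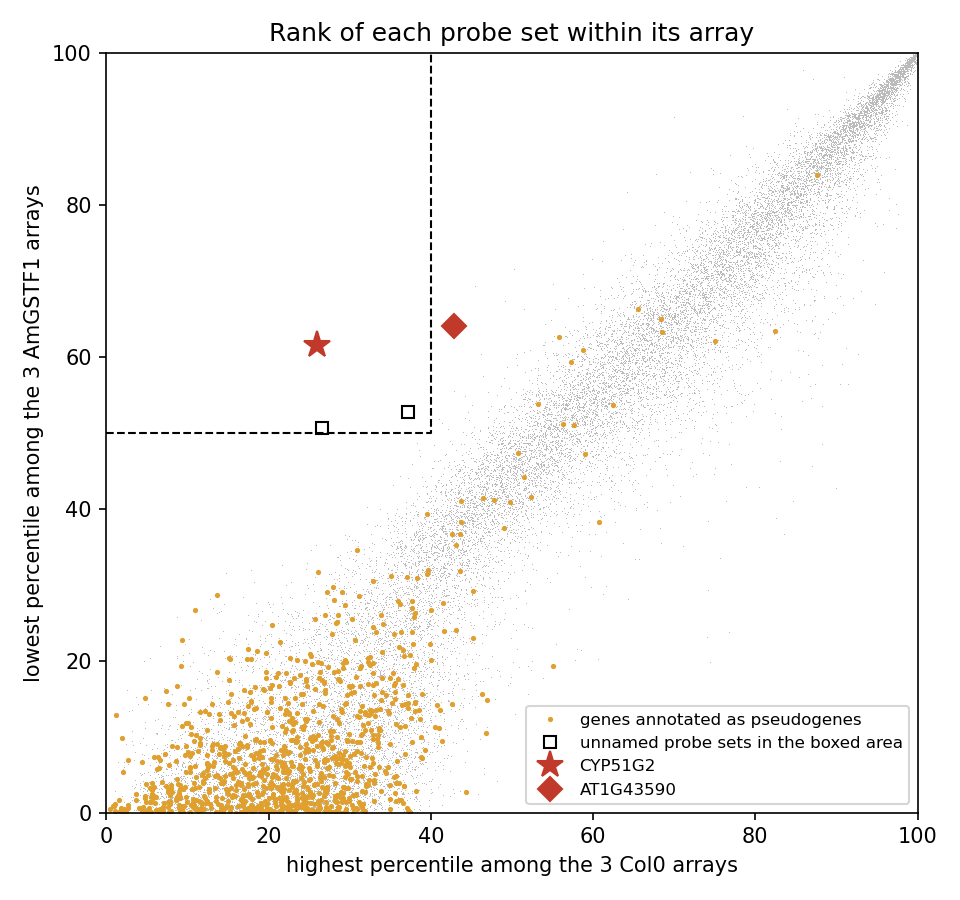
Each point is 1 probe set, placed by its lowest percentile among the 3 AmGSTF1 arrays (vertical axis) and its highest percentile among the 3 Col0 arrays (horizontal axis). The dashed lines bound the area under the 40th percentile in Col0 and above the 50th in AmGSTF1, which holds CYP51G2 and 2 unnamed probe sets. AT1G43590 lies just to its right, and genes annotated as pseudogenes (orange) crowd the dim corner.

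The genes next to CYP51G2 were compared to see whether the change reached its neighbours. Of the 10 nearest measured genes on each side, 11 of 20 were bright enough to be tested, and 0 were called higher or lower by limma, where 5.04% of all probe sets tested were called. At an unadjusted p under 0.05 there was 1 of the 11, against 23.3% of all probe sets tested. The log2 differences of the 11 had a median of -0.11, beside 0.05 for all probe sets tested. They ranged between -0.88 and 0.22. CYP51G2 itself, at 3.50, was chosen by this contrast, so the distance to it carries no test.

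The gene directly after CYP51G2 in the table, AT2G17340, had signals of 1790, 1670 and 2130 in AmGSTF1 and 1690, 1800 and 1780 in Col0. Its difference was 0.08 (95% interval -0.23 to 0.39, adjusted p = 0.785), so the groups of this immediate neighbour overlapped. The next ones were similar. AT2G17350 differed by 0.11 (-0.29 to 0.52), AT2G17360 by -0.13 (-0.45 to 0.18) and AT2G17410 by 0.03 (-0.29 to 0.35). The fifth, the pseudogene AT2G17490, was dim on every array, at 0.404 to 29.0 in AmGSTF1 and 1.45 to 4.08 in Col0. The loci directly before CYP51G2, AT2G17320 and SON1, had no named probe set.

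On that side the nearest measured gene was AT2G17300, which is 7 genes away. It was lower in all 3 AmGSTF1 leaf samples, with signals of 74.5, 115 and 136 in AmGSTF1 and 201, 149 and 295 in Col0. This difference of -0.88 (95% interval -1.51 to -0.24) did not pass over all probe sets (adjusted p = 0.103), and its adjusted p was 0.0541 to 0.307 over the 15 alternatives. The share of probe sets tested that were lower without overlap is not given here. AT2G17280 differed by -0.20 (-0.77 to 0.36) and AT2G17240 by -0.19 (-0.52 to 0.14), with overlapping groups. AT2G17210 and AT2G17170 had signals of at most 5.53 on any array.

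Around AT1G43590 most measured genes were dim in both groups. Of the 20 nearest, 16 were left out as too dim, among them all 10 annotated as pseudogenes, and no signal of these 16 exceeded 70.6 on any of the 6 arrays. The 4 genes tested had differences of 0.09 to 0.32, and 0 were called by limma, nor did any reach an unadjusted p under 0.05. When all probe sets were tested without the filter, 4 of the 20 had an unadjusted p under 0.05, against 16.1% of all probe sets. Named for these p, they went in both directions. UGT80B1 (0.32) and AT1G43200 (0.97) were higher in AmGSTF1, and AT1G43240 (-1.14) and AT1G43680 (-0.88) were lower. After adjustment 0 of the 20 were called by limma, where 1.48% of all probe sets were.

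AT1G43580, directly before AT1G43590, had signals of 555, 474 and 512 in AmGSTF1 and 491, 492 and 462 in Col0, a difference of 0.09 (95% interval -0.22 to 0.40, adjusted p = 0.748). The gene directly after it, AT1G43600, had no named probe set. The nearest measured gene on that side was UGT80B1, a glucosyltransferase that attaches glucose to sterols, 7 genes away. Its signals were 647, 599 and 518 in AmGSTF1 and 488, 460 and 451 in Col0. The groups did not overlap, which with AmGSTF1 higher held for 14.5% of all probe sets tested. The difference of 0.32 (-0.00 to 0.64) did not pass (adjusted p = 0.220, limma).

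The thioredoxin gene ty2 differed by 0.17 (-0.25 to 0.59) and AT1G43690 by 0.20 (-0.11 to 0.50). The pseudogene AT1G43570, 4 genes before AT1G43590, had signals of 16.5, 32.1 and 5.69 in AmGSTF1 and 23.0, 7.49 and 4.34 in Col0. The other dim genes among the 5 nearest on each side were AT1G43320, AT1G43290, AT1G43630, AT1G43660 and AT1G43680. With 20 measured genes on each side of both loci, 2 of 31 tested were called, both lower, a share near the 5.04% of all probe sets tested. Named because they were called, they were AT2G17670, the fourteenth from CYP51G2, at -0.93 (adjusted p = 0.0270), and AT1G43860, the sixteenth from AT1G43590, at -0.58 (adjusted p = 0.0427). Without the filter AT1G43860 was not called (adjusted p = 0.0545, limma).

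**Figure D3:**
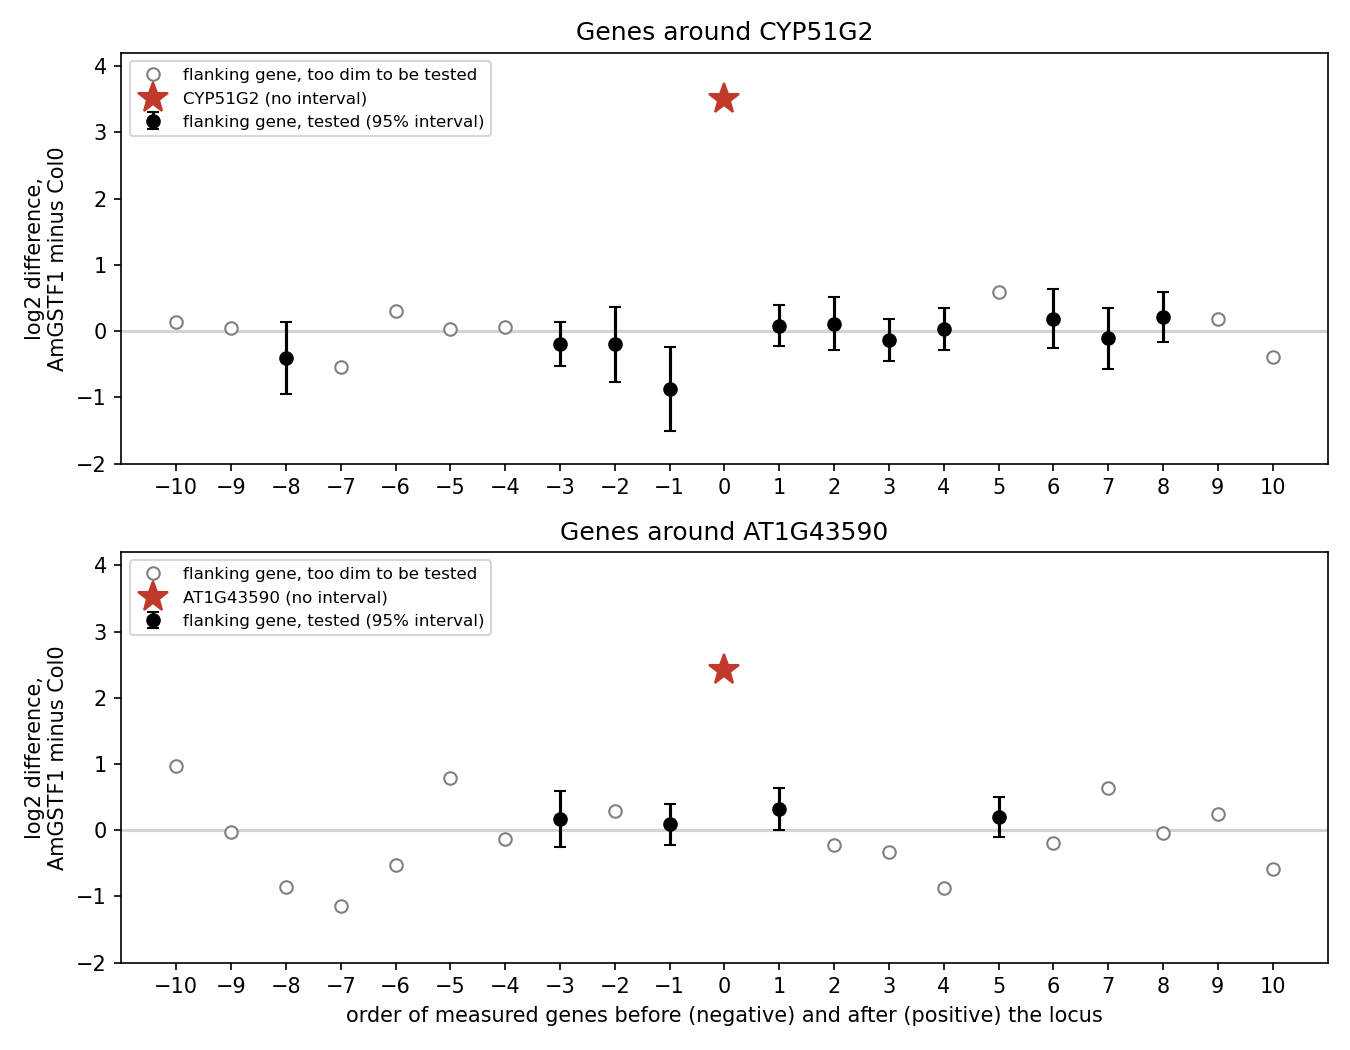
Log2 difference, AmGSTF1 minus Col0, of the 10 nearest measured genes on each side of CYP51G2 (top) and AT1G43590 (bottom), in gene order. Filled points with 95% intervals are genes bright enough to be tested, hollow points are dimmer genes, and the star is the gene itself. The stars, at 3.50 and 2.42, are genes chosen by this contrast, so their height beside the flanking genes carries no test. The 40 flanking genes lie between -1.14 and 0.97.

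Genes annotated as pseudogenes were listed after both genes were found to carry that class. The array held 989 of them with a named probe set, 987 besides CYP51G2 and AT1G43590. Of the 987, 962 (97.5%) were too dim to be tested. Among the 25 tested, 1 was called higher and 1 lower, which is 8% beside 5.04% of all probe sets. AT4G14610 was higher, at 330, 367 and 350 in AmGSTF1 and 179, 212 and 174 in Col0, a difference of 0.84 (adjusted p = 0.0226). AT3G17110 was lower, at 382, 421 and 335 in AmGSTF1 and 862, 585 and 564 in Col0, a difference of -0.77 (adjusted p = 0.0482). Neither was dim in Col0, and neither was called without the filter (adjusted p = 0.0503 and 0.0810). Without AmGSTF1 replicate 1 or 3, or Col0 replicate 1 or 3, 0 of the other pseudogenes were called, and without Col0 replicate 2 there were 2 called higher.

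Of the 987, 941 were under the 40th percentile on all Col0 arrays, and 930 of these were under it on all AmGSTF1 arrays too. In 0 of the 941 did all 3 AmGSTF1 signals exceed the 40th percentile. The pseudogene with the next highest difference, picked out with its values known, was AT1G35612, at 1.93 (95% interval 0.55 to 3.31, adjusted p = 0.101). Its signals were 447, 190 and 270 in AmGSTF1 and 79.6, 182 and 10.2 in Col0, so replicate 2 of each group nearly met. A gain like that of CYP51G2 was rare among all probe sets too. Of the 8248 under the 40th percentile on all Col0 arrays, 3 (0.0364%) exceeded the 50th on all AmGSTF1 arrays. The share exceeding the 40th was not counted, so nothing is read about the class from the 0 of 941. The median difference of the 25 tested was 0.10, beside 0.05 for all probe sets tested.

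Cytochrome P450 enzymes insert oxygen into sterols, hormones, defence compounds and many herbicides. Of 240 genes with a P450 name in the gene table, 22 had a named probe set, 18 of them of the CYP71B subfamily, so the family was seen through a narrow part of it. Besides CYP51G2, 11 were bright enough to be tested, and 0 were called by limma, where 5.04% of all probe sets tested were. An unadjusted p under 0.05 was found for 5 of the 11, against 23.3% of all probe sets tested. Their median difference was 0.25, beside 0.05 for all probe sets tested, with a range of -0.74 to 1.14.

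Among those tested, CYP71B24 came closest in size to CYP51G2, with signals of 402, 318 and 345 in AmGSTF1 and 87.3, 228 and 173 in Col0. Its difference was 1.14 (95% interval 0.49 to 1.78, adjusted p = 0.0524). CYP71B23 had signals of 1020, 1020 and 1410 in AmGSTF1 and 478, 835 and 587 in Col0, a difference of 0.87 (0.38 to 1.35, adjusted p = 0.0520). CYP78A9 was low in AmGSTF1, at 146, 204 and 218, against 328, 294 and 348 in Col0, a difference of -0.74 (-1.16 to -0.32, adjusted p = 0.0524). All 3 genes, named for the smallest p, stood at the edge of the threshold. Their groups did not overlap, which with AmGSTF1 higher held for 14.5% of all probe sets tested. The share with AmGSTF1 lower is not given here, and nothing is read from the lack of overlap. CYP71B23 was called in 4 of 15 alternatives, CYP71B24 in 3 and CYP78A9 in 3, and without Col0 replicate 2 there were 3 P450 genes called higher, against 1 without AmGSTF1 replicate 2.

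Of 35 listed genes of sterol synthesis and the mevalonate route that feeds it, 2 had a named probe set, and of 7 genes of brassinosteroid hormone metabolism 0 had one. CPI1 opens the cyclopropyl ring of a plant sterol precursor, the step just before that of CYP51. Its signals were 311, 335 and 427 in AmGSTF1 and 165, 271 and 272 in Col0. The groups did not overlap, and the difference of 0.59 (95% interval 0.10 to 1.08) did not pass (adjusted p = 0.146). PMK, phosphomevalonate kinase, had signals of 3800, 3790 and 3880 in AmGSTF1 and 4470, 3950 and 4240 in Col0, a difference of -0.14 (-0.41 to 0.13, adjusted p = 0.522). Its groups did not overlap either, with AmGSTF1 lower. Thus 0 of 2 were called by limma, where 5.04% of all probe sets tested were. Of the 2, 1 had an unadjusted p under 0.05, against 23.3% of all probe sets tested. Groups apart with AmGSTF1 higher made up 14.5% of them. The share with AmGSTF1 lower is not given here, and nothing is read from the lack of overlap of either gene. These are too few genes to describe the pathway.

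**Figure D4:**
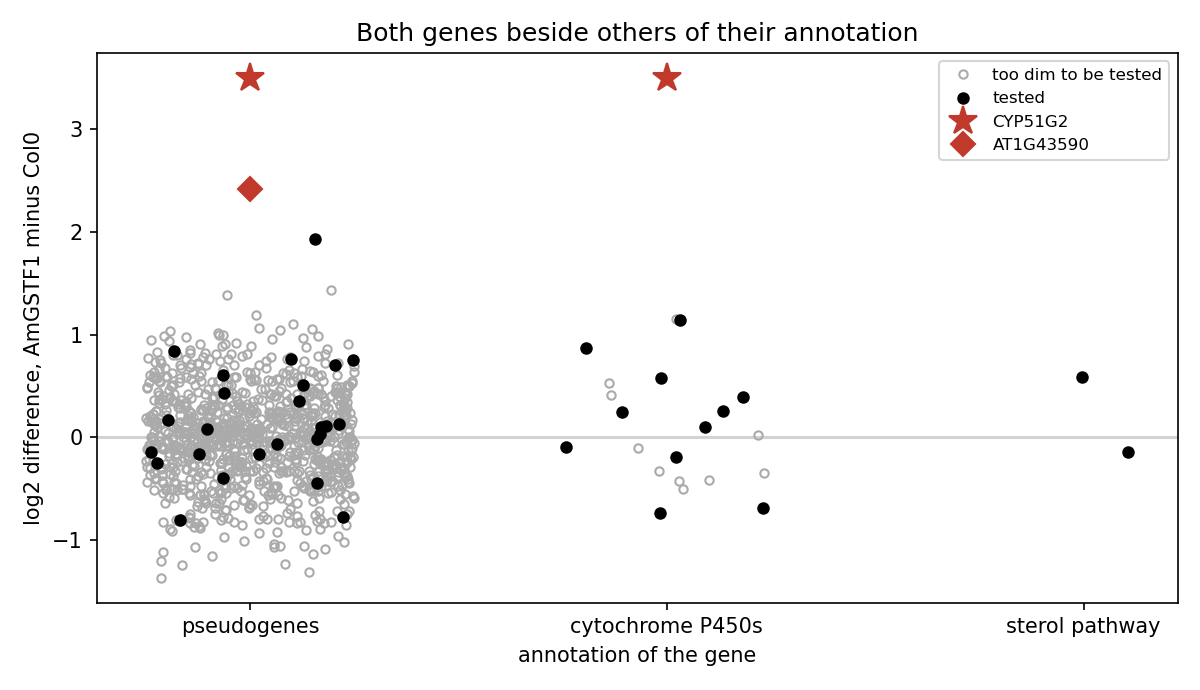
Log2 difference, AmGSTF1 minus Col0, of the measured genes annotated as pseudogenes, of cytochrome P450 genes and of sterol pathway genes, 1 point per gene, spread sideways for legibility. Filled points were bright enough to be tested and hollow ones were not. CYP51G2 (star, shown in both of its classes) and AT1G43590 (diamond) were chosen by this contrast, so their place at the top carries no test. The next highest gene is AT1G35612, at 1.93.

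The probe sets whose profile over the 6 arrays was most like each gene were named by Pearson correlation of log2 values among 7324 probe sets with 1 gene. For CYP51G2 they were pEARLI4 (r = 0.997), AT2G24230 (0.990), NET1D, an actin-binding protein (0.990), AT2G24240 (0.988) and the ubiquitin-conjugating enzyme UBC37 (0.988). For AT1G43590 they were KEU, a protein of vesicle fusion in cell division (0.996), AT2G38410 (0.996), AT1G48430 (0.993), AT3G50210 (0.991) and AT2G24240 (0.989). AT2G24240 is in both lists, with signals of 300, 302 and 300 in AmGSTF1 and 118, 170 and 142 in Col0. These genes shared the gap between the groups but not its size, with log2 differences of 0.44 to 1.01. A correlation above 0.95 was reached by 71 probe sets for CYP51G2 and 107 for AT1G43590, and with 3 arrays in each of 2 separate groups it mainly records the gap between the groups.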

How the data were processed

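Leaf RNA of 3 AmGSTF1 and 3 Col0 replicates was measured on Affymetrix arrays. The authors deposited linear MAS5 signal intensities, for which the submitters' processing notes name Affymetrix Expression Console 1.1. Each sample was grouped by its transgene label, with the replicate number from its title. The labels call the replicates biological.

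Signals were taken as log2(signal + 16) with no further normalization. The 40% of probe sets with the lowest mean were left out, which left 13647, and AmGSTF1 was compared with Col0 by limma 3.58.1 under R 4.3.3, using lmFit and an eBayes step with a trend on intensity. A probe set was called at a Benjamini-Hochberg adjusted p under 0.05 over all probe sets tested. All tests are two-sided. An exact permutation test of 3 against 3 cannot give a p under 0.1 and was not used. Differences on this scale understate the change of dim probe sets. Precision is limited by how few arrays there were.

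Of the probe sets, 13513 had 1 gene in the platform annotation, of which 13436 matched the RefSeq table of TAIR10.1, 503 had several and 8730 were unnamed here. Where a gene had several probe sets, the brightest stood for it. For AT2G17410 the other probe set was too dim to be tested. No source used here gives the build behind the array annotation, so the table served for names, classes and gene order only.

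CYP51G2, AT1G43590 and all lists were chosen with earlier results of these data known. Genes named were the 5 nearest measured genes on each side, every called list member or the 3 with the smallest p, and the 5 most correlated probe sets. Any other name is marked as picked with its values known. Alternatives were other pseudocounts, filters and normalizations, no trend, array weights, a replicate block, leaving out each array, and other percentiles and flank sizes. The steps were also run on simulated data, with independent noise and changes added to brighter probe sets only. That run does not bear on dim genes or on differences between single arrays. Figures were drawn with Python 3.11.15.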

Additional observations from a re-analysis of the deposited data

How the results depend on the processing

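The log2 difference of CYP51G2 was 4.54 with a pseudocount of 1 and 2.34 with one of 64, and that of AT1G43590 was 1.88 with one of 64. Leaving out 1 array gave 3.16 to 3.67 and 2.26 to 2.62, and quantile normalization or median centring gave 3.41 to 3.45 and 2.33 to 2.37. CYP51G2 passed the filter on dim probe sets in 3 of the 6 fits without 1 array. Its mean lies at percentile 42.9 of all probe sets. The gene passed without any 1 Col0 array and missed without any 1 AmGSTF1 array, so it passes through the group where it is high. With a pseudocount of 1 it missed the filter too.

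Over all probe sets 292 were called higher and 396 lower. These numbers were 814 and 827 with array weights, 222 and 599 with median centring (27.0% of calls higher, against 42.4%), 123 and 213 without the filter, where more were tested, and 192 and 237 without the trend. They were 7 and 10, 503 and 566, and 107 and 144 without AmGSTF1 replicates 1, 2 and 3, and 6 and 5, 603 and 530, and 8 and 5 without Col0 replicates 1, 2 and 3. The cause was not tested.

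With a replicate block there were 40 higher and 38 lower. Deviations of same-numbered arrays from their group means correlated at 0.146, -0.027 and -0.0504. Array weights were lowest for replicate 2 in both groups, at 0.602 in AmGSTF1 and 0.645 in Col0. Whether same-numbered arrays shared a harvest or a batch was not tested, and these values cannot decide it. Under the block the pseudogenes called numbered 0 higher and 0 lower.

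Flanking genes called were 0 in each direction except with 20 genes on each side, where 2 were lower. Sterol genes called stayed at 0 in all 15 alternatives, and without each array both of these counts ranged from 0 to 0. P450 genes called were 3 higher and 1 lower with array weights, 1 higher with a filter on the dimmest 20% and with a pseudocount of 64, and 1 lower with median centring and with quantile normalization. Leaving out 1 array gave 0 to 3 higher. Pseudogenes called, 1 higher and 1 lower, were 3 higher with array weights, 0 and 0 without the filter and 0 lower without the trend. With any 1 array omitted, 0 to 2 were higher and 0 to 1 were lower. Probe sets low in Col0 and high in AmGSTF1, and their mirror image, numbered 1 and 0 at the 30th and 60th percentiles, 0 and 0 at the 20th and 50th, and 12 and 9 at the 45th and 50th, which was chosen after the data were seen. Leaving out 1 array gave 3 to 11 and 2 to 4, counts that can only stay or rise when fewer arrays must meet the limits.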

Other observations

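Of the 962 other pseudogenes too dim for the main test, 43 (4.47%) had groups that did not overlap with AmGSTF1 higher and 45 (4.68%) with AmGSTF1 lower, beside 5.64% and 5.04% of all 9099 probe sets below the filter. The 3 described here are among the 43 and were picked out for their differences after their values were seen. AT3G32020 had signals of 41.7, 31.0 and 45.9 in AmGSTF1 and 2.13, 4.42 and 6.94 in Col0. AT3G42980 had signals of 33.5, 30 and 34.7 in AmGSTF1 and 2.31, 3.98 and 1.67 in Col0. AT3G42330 had signals of 19.3, 29.5 and 32.8 in AmGSTF1 and 3.19, 3.20 and 1.99 in Col0. All 9 AmGSTF1 values lay under the 40th percentile of their arrays, and with every probe set tested the adjusted p was 0.0566, 0.0519 and 0.0858 (limma).

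CYP71B5, a P450 gene too dim for the main test, had signals of 103, 97.1 and 76.9 in AmGSTF1 and 11.7, 51.1 and 45 in Col0. Its log2 difference was 1.15, and it did not pass when every probe set was tested (adjusted p = 0.192, limma). Its groups did not overlap, which with AmGSTF1 higher held for 5.64% of all probe sets below the filter. The gene was picked out after its values were seen.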
